A study of Mus musculus with 2 samples.

Results

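Complement components and regulators were described in mouse lung cells sorted for 2 marks, the SPC/GFP reporter and EpCAM, after the mice had breathed smoke for 3 months or, as controls, air for 3 months. SPC usually stands for surfactant protein C, which alveolar type 2 cells secrete, and EpCAM marks the surface of epithelial cells. The genes were chosen by symbol, as 9 names: Cfb, C3, C2, C4b, C1ra, Cfi, Cfd, Hc and Cd55. Of these, 7 had a named row among the 19505 genes with a symbol on the Clariom S Mouse array, and each of the 7 rested on 1 row; C3 and Cfd were not analysed here. Each condition was 1 array, so no SD or p-value can be given, and every comparison is between these 2 arrays and not between conditions. The genes were picked with their differences known, so those differences are a description. The sources used here do not give the strain, age or sex of the mice, how many animals stand behind an array, or whether animals were pooled. Both arrays share the reporter and the sort, and how the reporter was built is not stated.

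Complement is a cascade of plasma proteins that is started by the classical, the lectin or the alternative pathway. All of them lead to the cleavage of C3 and then of C5, which marks surfaces for uptake, releases peptides that attract leukocytes and builds a pore from the terminal components, while soluble and membrane-bound regulators protect host cells. The liver makes most of the circulating proteins, and alveolar type 2 cells are known to make several of them locally.

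The arrays held 22206 rows of deposited log2 signal, with a median of 4.53 on the smoke array and 4.61 on the air array and a Pearson's r of 0.989 across rows. Differences are smoke minus air on the log2 scale. A gene was called higher or lower when its difference was at least 1 or at most -1, which is 2-fold, and its brighter array reached 4.57, the median of all values. That level filter left 10419 genes. From these calls, 16 genes at the highest value of both arrays, 19.93, were left out because no difference can be measured there. They stayed among the genes used for scale below, where their differences of 0 narrow the spread at the highest levels. For scale, each gene was set beside the 200 genes nearest to it in mean level, with the robust SD (a scaled median absolute deviation) of their differences, which holds both measurement error and real differences. Signals of different genes come from different probes and were not ranked against each other.

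The complement genes did not move as 1 block. Cfb and C1ra, proteases of the alternative and the classical pathway, were the 2 genes past 2-fold, both higher on the smoke array, and 0 were past 2-fold lower. Cd55, a membrane regulator, and C4b were higher by less, and Hc, the gene of C5, was lower by less. C2 and Cfi were below the level filter on both arrays. Over the 10419 genes that passed the filter, 3.94% were higher by 2-fold or more and 2.48% lower; nothing is read from the count of 2, since these genes were chosen from this contrast. At 1.5-fold Cd55 joined Cfb and C1ra on the higher side, where 14.5% of all genes lay, with 9.19% of all genes on the lower side; at 3-fold Cfb and C1ra were still past it, beside 0.633% of all genes higher and 0.336% lower. In bulk samples such as these, fewer cells of a type and less RNA per cell cannot be told apart.

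**Figure D1:**
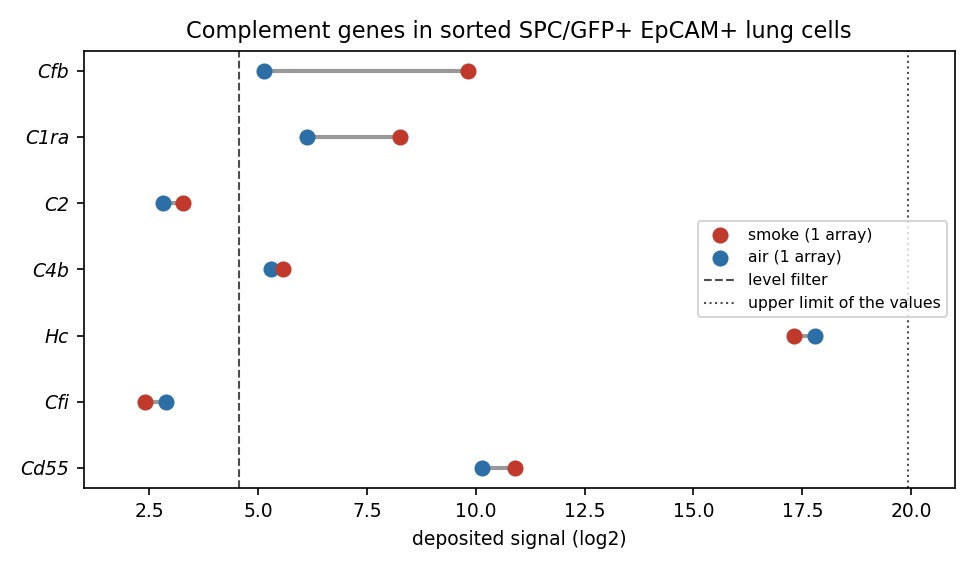
Deposited log2 signal (horizontal axis) of the 7 complement genes on the smoke array and the air array, 1 array each. Cfb runs to 9.83 in smoke against 5.15 in air and C1ra to 8.26 against 6.13, while C2 and Cfi lie left of the level filter of 4.57 on both arrays.

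Cfb encodes complement factor B, the zymogen that binds cleaved C3 and supplies the protease of the alternative pathway's C3 convertase. Its signal was 9.83 on the smoke array, against 5.15 on the air array, a difference of 4.68 or 25.6-fold higher. The air value lay close to the level filter, where the treatment of low signals matters most. With 16 added to each linear signal the difference was 4.17. Of the 200 genes nearest in mean level, 0 had a difference as high, and the robust SD of their differences was 0.42. Cfb ranked 2 among the 10419 genes when ordered from the most positive difference. Cfd, the protease that cleaves factor B once it is bound, and C3, its binding partner, were not analysed here.

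C1ra encodes a mouse C1r, the protease of the C1 complex that activates C1s. It stood at 8.26 on the smoke array, against 6.13 on the air array, a difference of 2.13 or 4.38-fold higher. None of the 200 genes nearest in level was as high (0 of 200; robust SD 0.49), and its rank was 26. C1rb, a near copy of C1ra, stood at 5.95 on the smoke array, against 5.49 on the air array, a difference of 0.46. Among the genes nearest C1rb in level, 48 of 200 were at least as high. Probes of near copies can share targets, so the values of C1ra and C1rb are uncertain to the extent that the array does not separate them.

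Because C1ra and C1rb are copies with unlike differences, their RefSeq promoter windows (assembly GRCm38.p6, 250 bases before to 50 after the annotated start) are shown, 5′ to 3′ on the gene's strand. C1ra lies at chr6:124512371-124512670 on the plus strand and C1rb at chr6:124570180-124570479, also on the plus strand. Capitals mark matches, on either strand, to any of 6 letter patterns searched: NF-kB as GGANTTNCC, the gamma-activated site as TTCNNNGAA, the interferon-stimulated element as GAAANNGAA, C/EBP as TTNNGNAA, the D-box as TTANGTAA and the E-box as CACGTG. Every D-box match is also a C/EBP match.
C1ra: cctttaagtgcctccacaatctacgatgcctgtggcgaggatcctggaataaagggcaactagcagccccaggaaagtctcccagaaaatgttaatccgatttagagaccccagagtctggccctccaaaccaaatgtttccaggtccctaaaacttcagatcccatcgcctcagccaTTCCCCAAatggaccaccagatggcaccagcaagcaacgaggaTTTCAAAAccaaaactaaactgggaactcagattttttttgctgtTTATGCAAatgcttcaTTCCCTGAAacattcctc
C1rb: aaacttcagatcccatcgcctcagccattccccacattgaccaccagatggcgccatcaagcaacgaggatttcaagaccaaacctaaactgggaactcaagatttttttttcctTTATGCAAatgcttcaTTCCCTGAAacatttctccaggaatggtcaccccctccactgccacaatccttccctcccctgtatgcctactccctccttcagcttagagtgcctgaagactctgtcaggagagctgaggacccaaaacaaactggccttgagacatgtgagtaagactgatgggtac
The windows aligned over 148 bases, of which 139 were identical (93.9%), and the shared block opens the C1rb window but closes the C1ra window. Both hold TTATGCAA, a C/EBP match, and TTCCCTGAA, a gamma-activated site match, in the same order. In C1ra these begin 17 and 33 bases into the annotated transcript, and in C1rb they begin at -135 and -119 from its annotated start. A gamma-activated site match was present in 8.3% of all 32851 promoter windows of this length, and a C/EBP match in 40.7%. C1ra has 2 more C/EBP matches, at -72 and -29. Neither window has a match to NF-kB (3.9% of windows), the interferon-stimulated element (8.6%), the D-box (2.3%) or the E-box (7.2%). A match is only these letters in this window, and a missing match says nothing about the factor.

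C2 encodes the protease that does in the classical and lectin pathways what factor B does in the alternative pathway, and its gene stands next to Cfb. Its signal was 3.29 on the smoke array, against 2.81 on the air array, both below the level filter. The difference was 0.48 and shrank to 0.16 with the offset, so no direction is read from it. Of the 200 genes nearest in level, 15 had a difference as high.

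C4b encodes C4, which is cleaved by C1s and forms the classical C3 convertase with C2. It stood at 5.58 on the smoke array, against 5.29 on the air array, a difference of 0.29, and 56 of 200 genes of like level were at least as high (robust SD 0.53). C4a, its close copy, was below the filter, at 2.79 on the smoke array and 2.54 on the air array. Hc encodes C5, the component whose cleavage starts the terminal pathway. It stood at 17.31 on the smoke array, against 17.79 on the air array, a difference of -0.48. That was 1.39-fold lower, with a robust SD of 0.30 and 11 of 200 genes of like level at least as low. C4b and Hc were both within 2-fold and differed in sign.

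Among regulators, Cfi encodes factor I, the plasma protease that cuts C3b and C4b with the help of cofactors. It was below the filter, at 2.41 on the smoke array and 2.89 on the air array, a difference of -0.48 that was -0.14 with the offset. Cd55 encodes decay-accelerating factor, a membrane protein that takes C3 convertases apart. It stood at 10.90 on the smoke array, against 10.14 on the air array, a difference of 0.76 or 1.69-fold higher, with 14 of 200 genes of like level at least as high (robust SD 0.39). Its tandem copy Cd55b stood at 11.83 on the smoke array, against 11.23 on the air array, a difference of 0.60, with 23 of 200 at least as high. Both copies were higher by less than 2-fold, and shared probe targets would make them alike.

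The promoter windows of Cd55 (chr1:130462695-130462994, minus strand) and Cd55b (chr1:130422994-130423293, minus strand) are shown because the copies had like differences. Capitals here mark the longest run that the windows share without a mismatch.
Cd55: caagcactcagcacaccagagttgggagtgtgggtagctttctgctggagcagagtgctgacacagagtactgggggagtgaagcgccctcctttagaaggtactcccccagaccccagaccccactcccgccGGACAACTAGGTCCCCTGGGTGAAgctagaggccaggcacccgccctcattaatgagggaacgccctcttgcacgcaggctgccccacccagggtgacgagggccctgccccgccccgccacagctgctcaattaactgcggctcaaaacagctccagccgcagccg
Cd55b: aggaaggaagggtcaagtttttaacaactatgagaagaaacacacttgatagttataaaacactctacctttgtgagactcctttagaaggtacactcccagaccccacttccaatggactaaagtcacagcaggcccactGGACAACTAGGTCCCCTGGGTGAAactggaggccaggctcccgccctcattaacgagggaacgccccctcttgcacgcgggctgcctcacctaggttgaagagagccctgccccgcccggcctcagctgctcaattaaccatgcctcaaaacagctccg
They aligned over 266 bases, of which 212 were identical (79.7%), and the longest shared run has 24 bases, from position 134 of the Cd55 window and 142 of the Cd55b window, counted from 1 at the 5′ end. For C1ra and C1rb the longest shared run has 34 bases. Neither Cd55 window holds a match to any of the 6 patterns. Windows for Cfb, C2, C4b and Cfi were not used here.

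**Figure D2:**
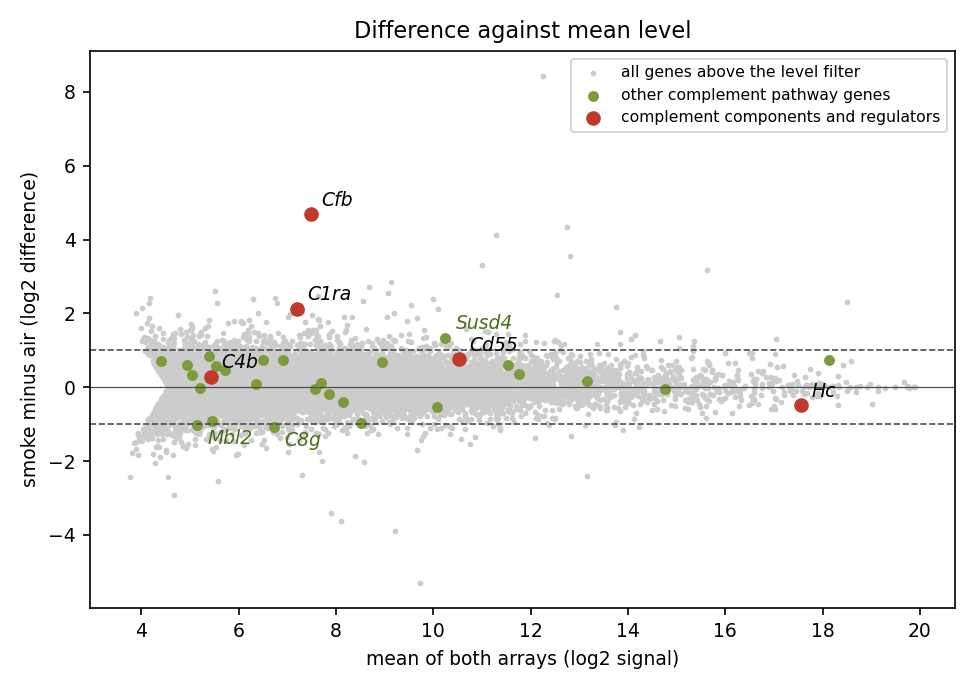
Log2 difference, smoke minus air (vertical axis), against the mean log2 signal of both arrays (horizontal axis) for the 10419 genes above the level filter, with the 5 complement genes above it in red and other complement pathway genes in green. Cfb at 4.68 and C1ra at 2.13 stand above the band of genes at their level, and the dashed lines mark 2-fold.

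The rest of the cascade was read from a list of 53 other complement genes, of which 50 were measured and 26 were above the level filter. Past 2-fold, 1 of those 26 was higher and 2 were lower, and the remaining 23 were within 2-fold, beside the 3.94% and 2.48% of all genes. Counts of 1 and 2 are too small to set against these shares, so nothing is read from them. Over all 50 measured genes the median difference was 0.04, with 27 above 0 and 22 below, beside a median of -0.02 over all 19505 genes. For the 26 above the filter the median was 0.245, with 16 above 0 and 10 below. The median of all genes above the filter was 0.06.

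Of the starting steps outside C1ra, Mbl2 was the 1 gene past 2-fold, on the lower side. C1qa, C1qb and C1qc, the chains of the recognition protein C1q that macrophages are known to make, were below the filter, between 3.15 and 4.43 on the smoke array and between 2.86 and 4.09 on the air array. Among the 4 other classical pathway proteases, all had differences above 0, from 0.13 for C1s2 to 0.74 for C1rl, the C1r-like protease, and 3 were above the filter. C1s1, the C1s protease that C1r activates, was at 5.21 on the smoke array and 4.88 on the air array. Of 9 lectin pathway genes, 4 were above the filter. Mbl2, a mannose-binding lectin, was at 4.63 on the smoke array, against 5.65 on the air array, a difference of -1.02 that became -0.70 with the offset. Mbl1, the other mannose-binding lectin, differed by 0.12, and Colec12, a membrane collectin, by 0.85.

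Terminal components were lower or little different. C8g, the gamma chain of C8, was at 6.18 on the smoke array, against 7.26 on the air array, a difference of -1.08 that became -0.94 with the offset; 2 of 200 genes of like level were at least as low. C7 was at 8.02 on the smoke array, against 8.99 on the air array, a difference of -0.97 just inside 2-fold, which was -1.07 under quantile normalization. C6 was at 14.74 on the smoke array and 14.79 on the air array, a difference of -0.05. C8a, C8b and C9 were below the filter on both arrays. Properdin, the stabiliser of the alternative convertase encoded by Cfp, differed by 0.08, from signals of 6.40 in smoke and 6.32 in air.

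Regulators of host protection held the 1 other gene past 2-fold higher. Susd4, a sushi-domain protein known to restrain complement, was at 10.92 on the smoke array, against 9.58 on the air array, a difference of 1.34 or 2.53-fold higher, and 0 of 200 genes of like level were as high (robust SD 0.42). Of the 9 membrane regulators on the list, 7 were above the filter and 5 of these had a difference above 0. Cr1l, which encodes Crry, a broad membrane regulator of rodents, was at 11.94 on the smoke array and 11.57 on the air array, a difference of 0.37. Cd59a and Cd59b, inhibitors of the terminal pore, differed by 0.16 and 0.74, and Cd46, known in mice mainly from sperm, by -0.91. Among soluble regulators, Clu (clusterin, which binds terminal complexes) was at 18.51 on the smoke array, against 17.77 on the air array, a difference of 0.74. Of 200 genes of like level, which include genes at the highest value, 8 were at least as high. Cpn1, the catalytic chain of the carboxypeptidase that inactivates complement peptides, differed by 0.69, and Serping1, the C1 inhibitor, by -0.04.

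Of 10 receptors, 5 were above the filter and 0 of these were past 2-fold, beside 3.94% of all genes higher and 2.48% lower. C5ar1 and C5ar2, the receptors of the C5 peptide, differed by 0.59 and 0.57, from smoke signals of 5.24 and 5.81 and air signals of 4.65 and 5.24. C3ar1 was below the filter, at 3.01 on the smoke array and 3.19 on the air array. Itgb2, the beta chain of the leukocyte complement receptors, had the largest difference above the filter, 0.70, at 4.75 on the smoke array and 4.05, below the filter, on the air array. Vsig4, a macrophage receptor of C3 fragments, differed by 0.98 but was below the filter on both arrays.

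**Figure D3:**
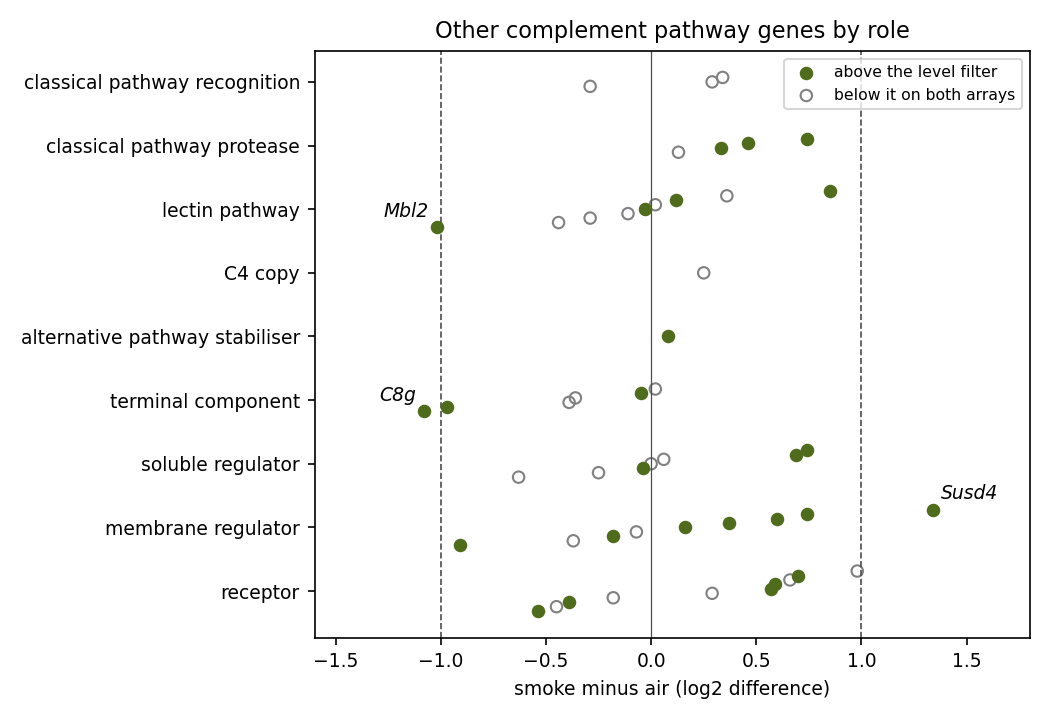
Log2 difference, smoke minus air (horizontal axis), of the 50 other measured complement genes, each a point in the row of its role; points in a row are spread vertically for legibility only. Filled points are above the level filter and open points below it on both arrays; Susd4 lies right of the 2-fold line, and C8g and Mbl2 lie left of it.

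Several complement genes stand beside each other in the genome, which the choice of genes did not use. In RefSeq gene order, 15 genes (protein-coding, with the transcribed pseudogene C4a) run from Fkbpl to Slc44a4 around C4b, Cfb and C2, and 14 of them were measured. Cfb, Nelfe and Slc44a4 were past 2-fold higher, 3 of the 8 that passed the filter, beside 3.94% of all genes. Under quantile normalization Nelfe, at 0.905, and Slc44a4, at 0.935, were within 2-fold. Nothing is read from the count, since Cfb was chosen from this contrast. Nelfe, a subunit of the negative elongation factor and the neighbour of Cfb on one side, was at 7.78 on the smoke array and 6.78 on the air array, a difference exactly on the 2-fold threshold. Slc44a4, a vitamin and choline transporter family gene, was at 9.49 on the smoke array and 8.43 on the air array, a difference of 1.06. C2, the neighbour of Cfb on the other side, was below the filter. Dxo, an RNA decapping enzyme in the same run, was lower by less than 2-fold, with a difference of -0.70. The 4.68 of Cfb was thus set among neighbours whose differences ran no higher than 1.06.

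Around C1ra, 11 genes from Cd163 to Phb2 were measured, and C1ra was the 1 of 8 above the filter past 2-fold. Over all genes above the filter 3.94% were past 2-fold higher and 2.48% lower. Nothing is read from the count, since C1ra was chosen from this contrast. Its direct neighbours C1rl and C1s1 differed by 0.74 and 0.33, and Lpcat3, a phospholipid acyltransferase gene beyond C1s2, by 0.70. Around Cd55, 7 of 10 genes were measured and 0 of the 5 above the filter passed 2-fold, beside the same shares of all genes. Cd55 and Cd55b, next to each other, had the highest differences there. C4bp, the C4b-binding protein of plasma, was below the filter at 2.96 on both arrays.

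**Figure D4:**
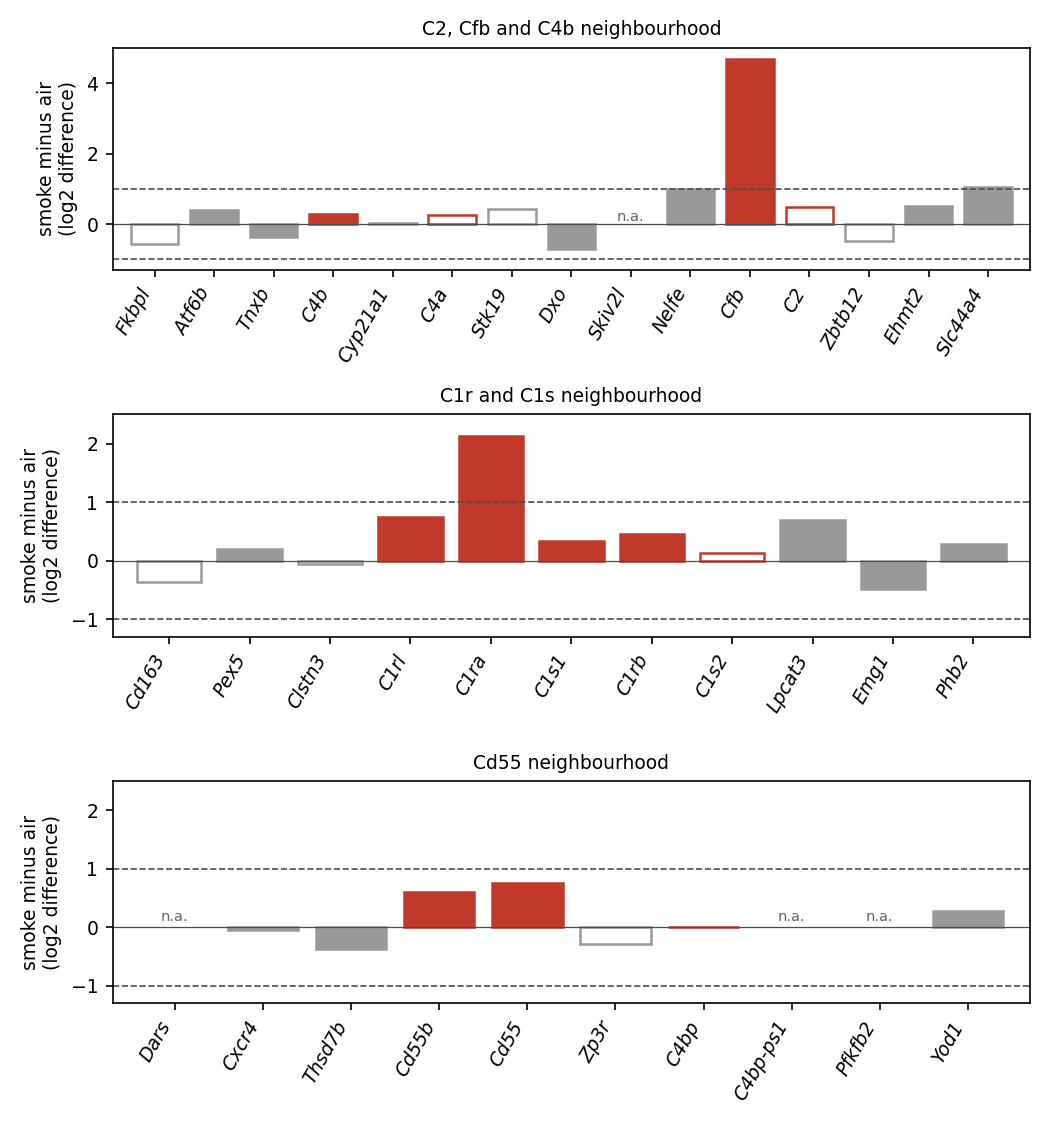
Log2 difference, smoke minus air (vertical axis), of genes in RefSeq order around C4b, Cfb and C2 (top), C1ra (middle) and Cd55 (bottom); the vertical scales differ, and dashed lines mark 2-fold. Complement genes are red and others grey, filled bars are above the level filter, open bars below it, and n.a. marks genes not analysed here; Cfb at 4.68 and C1ra at 2.13 stand above their neighbours.

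The sort was checked with alveolar type 2 markers and with markers of other cells that can carry complement genes. Of 12 type 2 genes, 5 (Sftpc, Sftpb, Sftpa1, Lamp3 and Slc34a2) reached 19.93 in both conditions, and the other 7 differed by -0.17 (Epcam) to 0.25 (Nkx2-1). Neutrophil markers had a median difference of 0.21 over 10 measured genes, with summed linear signals of 813 on the smoke array and 583 on the air array. Of these, 6 were above the filter, 5 with a difference above 0 and 1 below. Their median was 0.75, beside 0.06 over all genes above the filter. Il1r2 (1.12) and Cxcr2 (0.98) were the most different, while the granule genes Mpo, Elane, Camp and Ngp were below the filter on both arrays. For macrophage and monocyte markers the median difference was -0.07 over 12 measured genes, with summed linear signals of 249033 on the smoke array and 248305 on the air array, nearly all from Lyz1. Marco, Siglecf, Adgre1, Fcgr1 and the C1q genes were below the filter on both arrays. Of the 5 genes above it, Chil3 differed by -1.40, Cd14 by 1.06 and Lyz1 by 0.01. The other 2 were Mrc1, at 8.59 on the smoke array and 8.82 on the air array, and Csf1r, at 6.54 and 6.69.

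The median difference of fibroblast and smooth muscle markers was -0.30 over 11 genes and -0.05 over the 9 above the filter. Of those 9, 4 had a difference above 0 and 5 below. Summed signals were 2211 on the smoke array and 3737 on the air array. Most of both sums came from Gsn, at 10.62 on the smoke array and 11.58 on the air array. Col1a1 differed by -1.18, and Pdgfrb, at 5.09 on the smoke array and 6.09 on the air array, lay on the 2-fold threshold. Endothelial markers had a median of -0.73 over 9 genes, 8 of them lower, with summed signals of 24680 on the smoke array and 39322 on the air array; Cldn5 and Eng differed by -1.17 and -1.03. Mesothelial markers had a median of -0.085 over 6 genes, with summed signals of 113 on the smoke array and 109 on the air array. Of these, 4 were below the filter, and Msln and Upk3b differed by -1.28 and 0.65. Lymphocyte markers had a median of 0.09 over 7 genes, with summed signals of 521 on the smoke array and 483 on the air array, and Cd3d and Cd79b differed by 1.03 and 0.32. Club and ciliated cell markers had a median of -0.33 over 9 genes, with summed signals of 1057363 on the smoke array and 1072643 on the air array, nearly all from Scgb1a1, which reached 19.93 on both; Scgb3a1 and Cfap126 differed by -1.83 and 1.56. The part of these other cells in the differences of Cfb, C1ra, Cd55 and Hc was not tested.

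**Figure D5:**
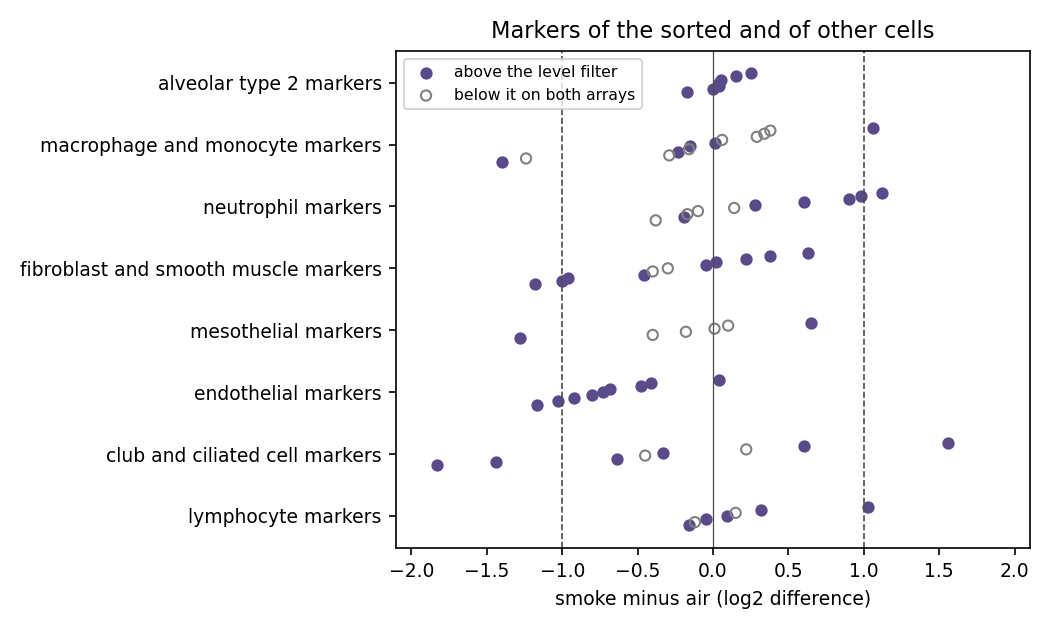
Log2 difference, smoke minus air (horizontal axis), of markers of the sorted cells (top row) and of other cells, each point a gene; genes at 19.93 in both conditions are not drawn, and points are spread vertically for legibility only. Type 2 markers lie within -0.17 to 0.25, and 8 of 9 endothelial markers lie below 0.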

How the data were processed

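RNA of sorted lung cells was hybridised to Clariom S Mouse arrays, 1 for smoke and 1 for air exposure, per the labels. The authors deposited 1 value per row and array, read here as log2 signal from the values. The submitters' processing notes name Transcriptome Analysis Console; its version, its settings, how background was handled, how arrays were normalized and the genome build are not stated there, so scale and centring are unknown. The direction is known from the labels. A highest value shared by both arrays was read as an upper limit.

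Rows were named through the platform annotation; rows of 1 gene were averaged, which gave 19505 genes, of which 19505 matched RefSeq (GRCm38.p6) by Entrez number and 19502 had a position there. RefSeq was used for gene order and promoter sequences. Genes were called at 2-fold above a level filter at the median, with the 200 genes nearest in level as a yardstick (Python 3.11.15, numpy 2.4.6, pandas 2.3.3). The calling was tested on simulated data with planted changes larger than 2-fold, in genes well above the level filter. Calls near 2-fold, calls near the filter and the rate of false calls were not tested. Genes named are the 9 chosen, other complement genes past 2-fold or with a large difference in their role, near copies, neighbours and leading markers; other genes were named after their values were seen. The genes and lists were chosen with earlier results of these data known, and the C1ra and Cd55 neighbourhoods and the promoter patterns after the values and sequences had been seen. Alternatives were other filters, thresholds of 1.5-fold and 3-fold, quantile normalization, 2 centrings and an offset of 16.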

Additional observations from a re-analysis of the deposited data

How the results depend on the processing

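Among the chosen genes, 2 were past 2-fold higher and 0 lower, beside 3.94% and 2.48% of all genes. These counts were the same under every alternative but 1.5-fold, and the shares of all genes follow in brackets. The alternatives were no level filter (2.40% and 2.09%), the filter at the 75th percentile (4.03% and 1.41%) and on the mean signal (3.71% and 1.95%). Others were quantile normalization (3.45% and 2.68%), centring by level (3.58% and 2.71%) and centring on all genes (4.27% and 2.28%). The last were an offset of 16 (2.33% and 0.979%) and 3-fold (0.633% and 0.336%). At 1.5-fold the counts were 3 and 0 (14.5% and 9.19%). Nothing is read from these counts, since the genes were chosen from this contrast. Of the 26 other complement genes above the filter, 1 was higher and 2 were lower. The lower count was 0 of 12 with the filter at the 75th percentile, beside 1.41% of all genes. With the offset it was 0, beside 0.979%. At 1.5-fold 9 of the 26 were higher and 4 lower, beside 14.5% and 9.19% of all genes. At 3-fold the counts were 0 on each side, beside 0.633% and 0.336%. Under quantile normalization, where 27 genes passed the filter, the lower count was 3, beside 2.68% of all genes. Under centring by level it was 3 of 26, beside 2.71%. The difference of Cfb was 4.17 with the offset, 4.62 under quantile normalization and 4.58 centred by level, beside 4.68 as reported; that of C1ra was 1.91, 2.04 and 2.04, beside 2.13. Over all genes above the level filter, 61.4% of calls were on the higher side, against 55.6% under quantile normalization and 70.4% with the offset. The sign of each of the 7 chosen genes' differences was the same under quantile normalization and both centrings. The centrings moved these differences by little, and an offset cannot change a sign, so nothing is read from the unchanged signs. No direction is read from C2 and Cfi, which were below the level filter. No paired analysis was possible because each group has 1 array, and for the same reason no array could be left out. With no detection calls, what the array can measure near the level filter is unknown.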
